A study of Homo sapiens with 12 samples.

Results

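The integrin, laminin and collagen genes were described here as 45 symbols (20 integrin subunits, 9 laminin chains and 16 collagen chains) looked up in the probe annotation of an Illumina expression array, with the brightest probe kept for each gene. A probe was found for 43 of the 45 genes, out of 18665 genes with a probe, and none carried the symbols ITGA11 or LAMA3. The study hybridised RNA from MDA-MB-231, an established human triple-negative breast cancer cell line, to 12 arrays to ask what cyclin D1 and its kinase partners do to gene expression. The labels give 4 groups, each of 3 arrays: cells given no siRNA, a non-targeting siRNA, an siRNA against cyclin D1, or siRNA against CDK4 and CDK6 together. All groups are of 1 cell line, and the labels do not say whether the numbered samples came from separate cultures, while the study's legends speak of independent experiments without tying them to these arrays. The p-values below therefore measure the spread between these samples, which may be in part technical.

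Integrins are cell surface receptors made of an α and a β subunit, and most of them bind matrix proteins outside the cell and actin-linked proteins inside it. Laminins are trimers of an α, a β and a γ chain that form the sheet of the basement membrane, on which type IV collagen lays a second network. The fibrillar collagens build the fibres of the interstitial matrix, and carcinoma cells with mesenchymal traits are known for making some of this matrix themselves.

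The genes that the siRNAs target did not follow the labels, so groups are called by their labels and the probe levels of CCND1 and CDK4 were used beside them. CCND1, which encodes cyclin D1, lay between 13659 and 15393 intensity units on 6 arrays and between 2703 and 5100 on the other 6, and arrays of all 4 labels occurred in both sets. CDK4 lay between 275 and 409 on 3 arrays (no siRNA 3, non-targeting siRNA 2 and CDK4/6 siRNA 2) and between 2167 and 2771 on the other 9. CDK6 was low on the same 3 arrays, from 276 to 334 against 1297 to 1752, so a slope on CDK4 cannot be told apart from one on CDK6. All 3 arrays low in CDK4 were among the 6 high in CCND1. The mesenchymal markers fixed for the line (VIM, CD44, CDH11, SNAI2 and AXL) were above background on all 12 arrays, 5 of 5. So were 4 of 7 luminal breast markers (GATA3, KRT8, KRT18 and KRT19, with FOXA1 on no array and ESR1 on 2), 2 of 6 leukocyte markers (CD14 and CD68, with PTPRC on none) and 1 of 5 endothelial markers (PECAM1, with VWF on none).

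Of the 43 genes with a probe, 28 were above the background level of 44.3 intensity units on all 12 arrays, which is 65.1% of them beside 59.0% of the 18665 genes on the array. These 28 were 12 integrin, 6 laminin and 10 collagen genes. A further 5 (ITGA7, ITGA9, ITGB8, COL5A2 and COL18A1) passed it on 3 to 11 arrays, ITGA4 passed it on 2, and 9 passed it on none. Brightness depends on the probe as well as on the transcript, so each level is given for its own gene and the genes were not ranked.

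Among the α subunits, ITGA3 and ITGA6, partners in laminin receptors, measured 4766 to 5905 (median 5117) and 4158 to 5164 (median 4701) over the 12 arrays. ITGA5, the α subunit of the classical fibronectin receptor, measured 1221 to 1565 (median 1360). The collagen-binding subunits ITGA1, ITGA2 and ITGA10 were all above background on every array, with medians of 72.4, 297 and 80.1. ITGAV, which pairs with several β subunits to bind RGD-containing proteins such as vitronectin, had a median of 442. ITGA7 and ITGA9 straddled the background level, with medians of 44.1 and 40.1, ITGA4 reached at most 45.6, and ITGA8 at most 38.6. Signal throughout was thus seen for laminin-, fibronectin-, collagen- and RGD-binding α subunits.

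ITGB1, the β subunit shared by most matrix-binding integrins, measured 14264 to 16111 (median 15173), the narrowest relative range of the 28 genes at 1.13-fold. ITGB5, a partner of αV, measured 2889 to 4209 (median 3456). ITGB4, the partner of α6 in hemidesmosomes, measured 391 to 540.0 (median 457). The other αV partners gave little or no signal: ITGB3 and ITGB6 were above background on no array and ITGB8 on 4. ITGB2 and ITGB7, known mainly from leukocytes, were above background throughout, with medians of 1013 and 649. Of the α subunits that ITGB2 pairs with, ITGAL, ITGAM and ITGAD were above background on 0 arrays and ITGAX on all 12, at 53.3 to 64.3. ITGA4 and ITGAE, the partners of ITGB7, were above background on 2 and 0 arrays. The β2 and β7 signals thus stood beside low or undetected signal for most of their partner subunits.

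For the laminins, LAMB3, a chain of epithelial laminin-332, measured 2157 to 3027 (median 2445). LAMB2 and LAMB1, alternative β chains of the other basement membrane laminins, measured 349 to 636 (median 483) and 133 to 206 (median 182). The α chains LAMA1, LAMA2 and LAMA4 were above background on every array but within 47.5 to 71.3, and LAMA5 reached at most 42. LAMC1, the most widely used γ chain, reached at most 36.7 on its single probe, below background on every array.

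Among the collagens, COL1A2, the α2 chain of type I collagen, measured 4100 to 5064 (median 4698), while COL1A1, the chain it assembles with, measured 54.6 to 68.2 (median 60.6), each on its own probe. COL3A1 and COL5A1, the main chains of fibrillar types III and V, were above background on no array, and COL5A2 was near background with a median of 44.3. COL8A1, a short-chain network collagen, measured 3376 to 5357 (median 4419). COL4A1 and COL4A2, which assemble into the common type IV collagen of basement membranes, measured 863 to 1025 (median 925) and 148 to 206 (median 164). COL4A5 was above background on no array, whereas COL4A6, a gene outside the 45 that encodes a chain known to assemble with that of COL4A5, measured 4825 to 6145 (median 5417). The type VI chains COL6A1, COL6A2 and COL6A3 had medians of 448, 108 and 121, COL7A1, the anchoring fibril collagen, 631, and COL12A1, which decorates type I fibrils, 228. COL13A1 was above background on no array and COL18A1, a basement membrane collagen and the source of endostatin, on 7.

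**Figure D1:**
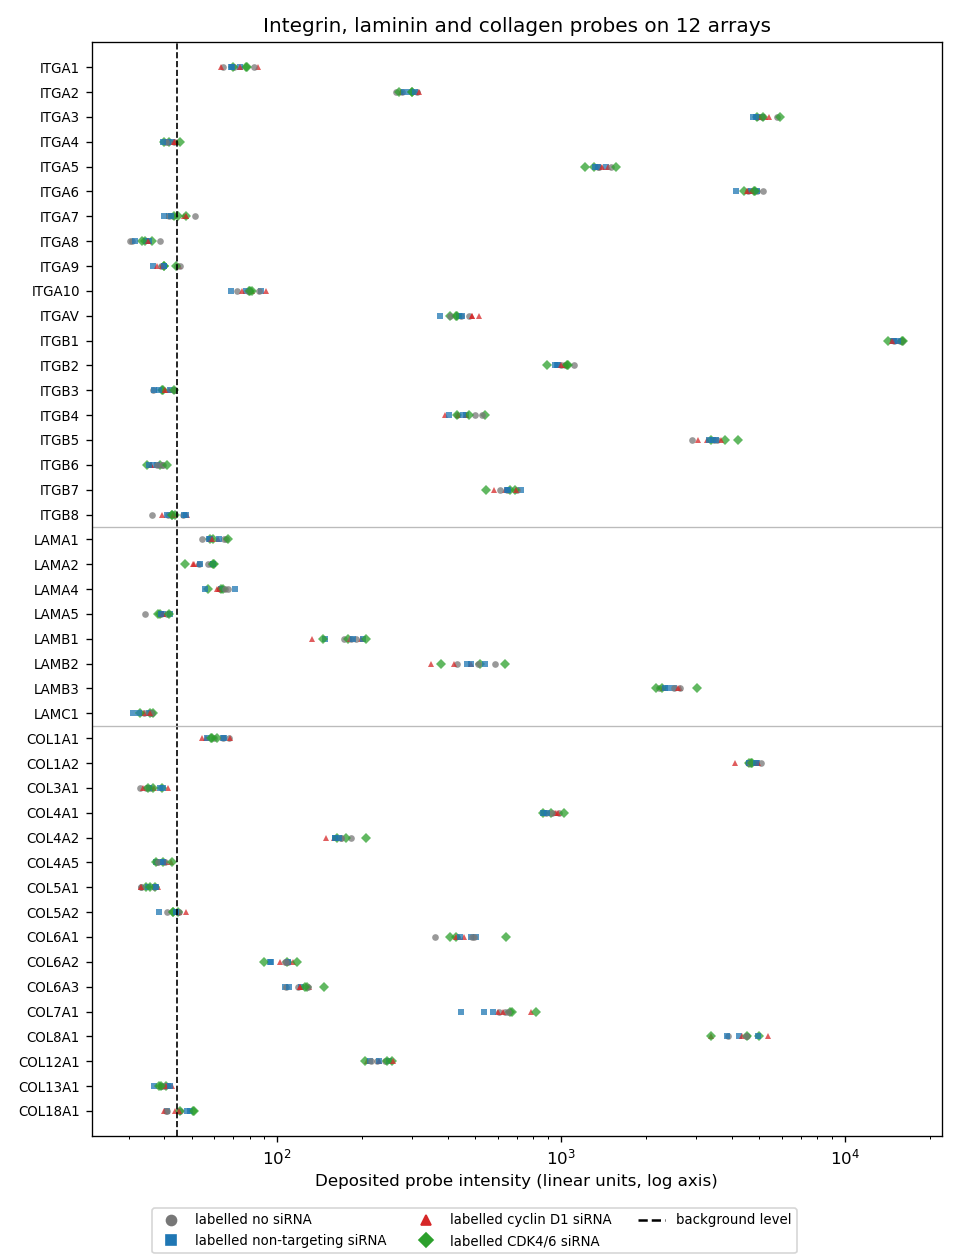
Deposited intensity (x axis, linear units on a log axis) of the brightest probe of each of the 43 genes with a probe (y axis) on each of the 12 arrays, with marker shape and colour giving the label and the dashed line the background level of 44.3. The points of each gene lie close together, from 1.13-fold between the lowest and highest array for ITGB1 to 1.84-fold for COL7A1, and 9 genes lie wholly below the line. Background was not subtracted, which compresses the folds of dim genes.

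Several genes had more than 1 probe, and the probes did not always give the same answer about presence. Of the 43 genes, 17 had more than 1 probe. For 6 of the 28 genes detected throughout (ITGB1, ITGB2, ITGB4, ITGB5, LAMA1 and COL1A2), another probe of the same gene was above background on at most 2 arrays. ITGB1 had 4 probes, with medians of 15173 and 1773 for 2 of them and below the background level for the other 2. A gene below background on its single probe, such as LAMC1, is therefore reported as not detected by that probe.

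The deposited intensities of the 28 genes varied little over the arrays. Background was not subtracted from them, so the folds of dim genes, such as LAMA2 at 47.5 to 60.2, are compressed and do not show stable expression. The median fold of the 28 genes between the lowest and the highest array was 1.32, beside 1.31 over the 11005 genes of the array that were above background on all arrays. The widest ranges were those of COL7A1 (1.84-fold), LAMB2 (1.82-fold) and COL6A1 (1.77-fold), followed by COL8A1 (1.59-fold) and LAMB1 (1.55-fold). LAMB2 was lowest, at 349, on cyclin D1 siRNA 3 and highest, at 636, on CDK4/6 siRNA 3, and both of these arrays were in the set low in CCND1.

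A linear model in limma with the log2 probe levels of CCND1 and CDK4 as 2 covariates over all 12 arrays asked which genes changed with either level. No gene of the family passed an adjusted p of 0.05 (limma, Benjamini-Hochberg over all tested probes). Of the 33 tested members, 0 were called for CCND1 and 0 for CDK4. Over all 13594 genes tested, 4.71% were called for CCND1 (3.31% higher and 1.4% lower where CCND1 was high). For CDK4 the share was 3.18% (2.66% higher and 0.522% lower). Before adjustment, 4 members had a p under 0.05 for CCND1 (COL6A2 with a positive slope, COL1A2, COL6A1 and COL8A1 with negative ones) and 2 for CDK4 (ITGAV positive, ITGA6 negative), beside 17.4% and 13.9% of all genes. The slopes are associations with a measured level over arrays that fall into separate sets, not the effect of a labelled siRNA. RNA was taken from whole cultures, in which fewer cells of a type and less RNA per cell cannot be told apart.

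Slopes were small and of both signs in each family. For CCND1, whose probe level spanned 2.50 log2 units, slopes per log2 unit ran from −0.17 to 0.10, and the median over the 33 members was −0.0017 beside −0.0038 over all genes. Positive and negative slopes numbered 6 and 9 for the integrins, 3 and 3 for the laminins, and 7 and 5 for the collagens, with smallest adjusted p of 0.629, 0.707 and 0.0795 (limma). For CDK4, which spanned 3.25 log2 units, slopes ran from −0.078 to 0.073, with a median of −0.0069 beside −0.0028 over all genes. Some precise estimates bound the change closely: for ITGB1 the 95% interval of the log2 change over the whole CCND1 range was −0.11 to 0.13. The interval was wider for LAMB2, at −0.55 to 0.25.

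**Figure D2:**
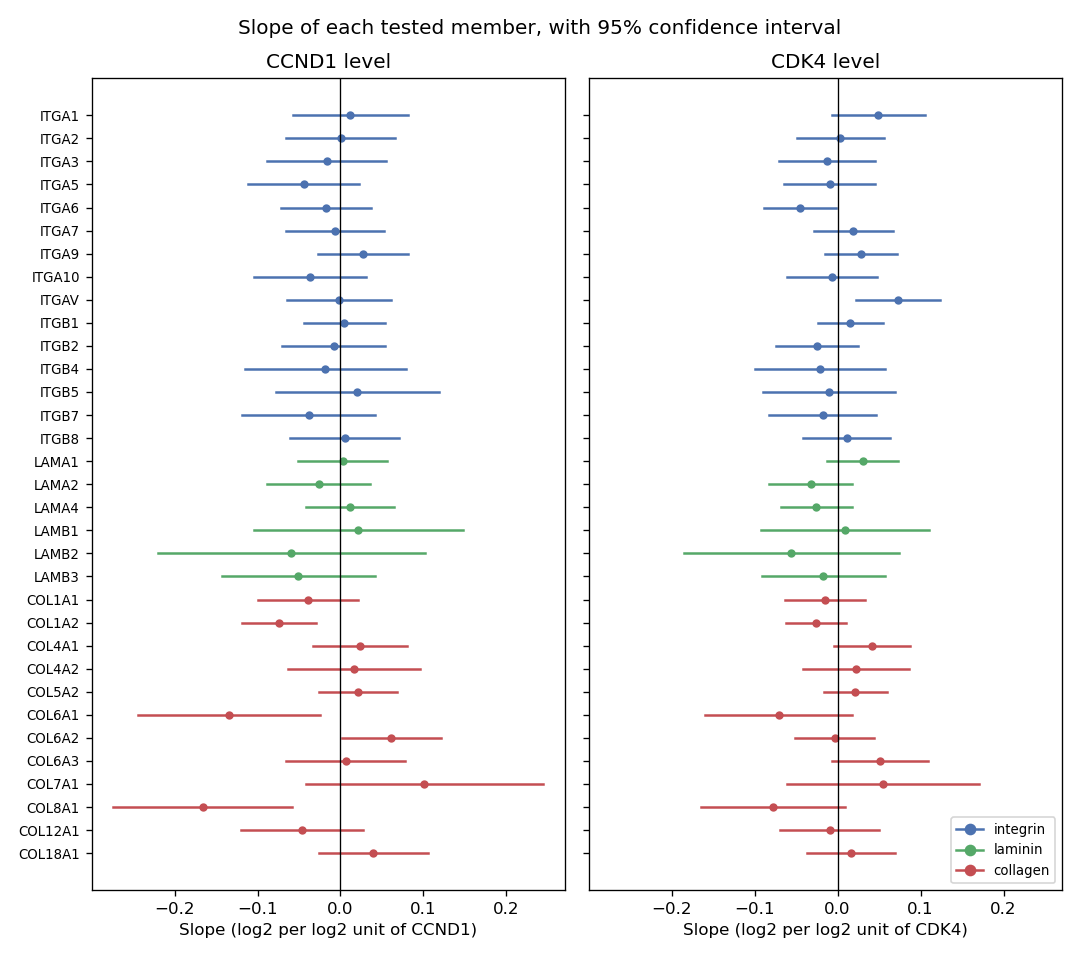
Fitted slope with its 95% interval (x axis, log2 change in intensity per log2 unit of probe level) for each of the 33 tested genes (y axis), on the CCND1 level in the left panel and on the CDK4 level in the right panel. Most intervals cross 0, and none of the slopes passed the adjusted p of 0.05 (limma).

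COL1A2 had the smallest adjusted p. For replicates 1, 2 and 3 it measured 4579, 5064 and 4654 under the label no siRNA, 4932, 4622 and 4859 under non-targeting siRNA, 4100, 4876 and 4943 under cyclin D1 siRNA, and 4609, 4671 and 4726 under CDK4/6 siRNA. Its 6 values on the arrays low in CCND1 (4726 to 5064) all lay above its 6 values on the arrays high in CCND1 (4100 to 4671). Of the 33 tested members, this 1 had its 6 highest values on the arrays low in CCND1, as did 0.522% of all genes, and 0 had their 6 lowest values there, as did 0.434%, or 0.956% in either direction. The slope was −0.074 (SE 0.021, n = 12 arrays), a log2 change of −0.30 to −0.072 over the CCND1 range by its 95% interval, with an adjusted p of 0.0795 (limma). Without the array of its lowest value, cyclin D1 siRNA 1, the slope was −0.048 with an adjusted p of 0.350 (limma). Among the cell type markers, CDH11 of mesenchymal cells (slope −0.12, adjusted p = 0.0385) and CD14 of myeloid cells (slope −0.18, adjusted p = 0.0218) were called lower where CCND1 was high (limma). The rest of the mesenchymal list was not called, with slopes of −0.025 for VIM, −0.016 for CD44, −0.14 for SNAI2 and 0.019 for AXL. CD68 of the leukocyte list was not called either, with a slope of −0.041. The leukocyte list had 2 of 6 markers above background on all arrays, with PTPRC on none, and summed to 4702 to 5653 units, where CD68 alone measured 4277 to 5143. The fibroblast list, which holds COL1A2 itself, had 5 of 7, with COL3A1 on none and DCN on 2, and summed to 4482 to 5463, where COL1A2 alone measured 4100 to 5064. Each sum is thus mostly 1 gene and says little about other cells. The part of other cells in the COL1A2 values was not tested.

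COL8A1 had the steepest slope. In the same order of replicates its values were 3898, 4546 and 4489 without siRNA, 4249, 3867 and 4974 for non-targeting siRNA, 3376, 4350 and 5357 for cyclin D1 siRNA, and 3385, 4534 and 4980 for CDK4/6 siRNA. The highest 3 values were on the number 3 arrays of the non-targeting, cyclin D1 and CDK4/6 labels, all low in CCND1 (4311 to 5100). The other arrays low in CCND1 had still less CCND1 (2703 to 3513) but lower COL8A1 values (4249 to 4546). Those values overlapped with those of the arrays high in CCND1. How many of all genes had their 3 highest values on the same number 3 arrays was not computed. The slope on CCND1 was −0.17 (SE 0.050, adjusted p = 0.105, limma), and −0.089 (adjusted p = 0.586) with the replicate number as a block. The 2 other probes of the gene gave −0.11 and −0.010, with adjusted p of 0.432 and 0.970 over all probes (limma).

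COL6A1, the α1 chain of type VI collagen, measured 361, 496 and 485 without siRNA, 501, 482 and 441 for non-targeting siRNA, 436, 454 and 427 for cyclin D1 siRNA, and 406, 426 and 640 for CDK4/6 siRNA. A single array, CDK4/6 siRNA 3, lay far above the other 11, and the rest overlapped. The slope on CCND1 was −0.13 (SE 0.051, adjusted p = 0.232, limma). Without that array the slope was −0.11 and its adjusted p was smaller, at 0.0709 (limma). COL6A2, its partner chain, had a slope of the opposite sign on its brightest probe (0.061, SE 0.028, adjusted p = 0.349, limma), and its 2 other probes gave 0.010 and 0.015.

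For the CDK4 level, ITGAV had the smallest adjusted p, with a slope of 0.073 (SE 0.023, adjusted p = 0.174, limma). It measured 446, 473 and 408 without siRNA, 438, 375 and 448 for non-targeting siRNA, 513, 486 and 488 for cyclin D1 siRNA, and 428, 409 and 431 for CDK4/6 siRNA. Its lowest 3 values, 375, 408 and 409, were those of the 3 arrays low in CDK4, and the next value was 428. The share of all genes with their 3 lowest values on those arrays was not computed. ITGA6 had a slope of −0.045 (SE 0.020, adjusted p = 0.423, limma), and its highest value, 5164, was on no siRNA 3, an array low in CDK4, while its lowest, 4158, was on non-targeting siRNA 3, where CDK4 was high.

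**Figure D3:**
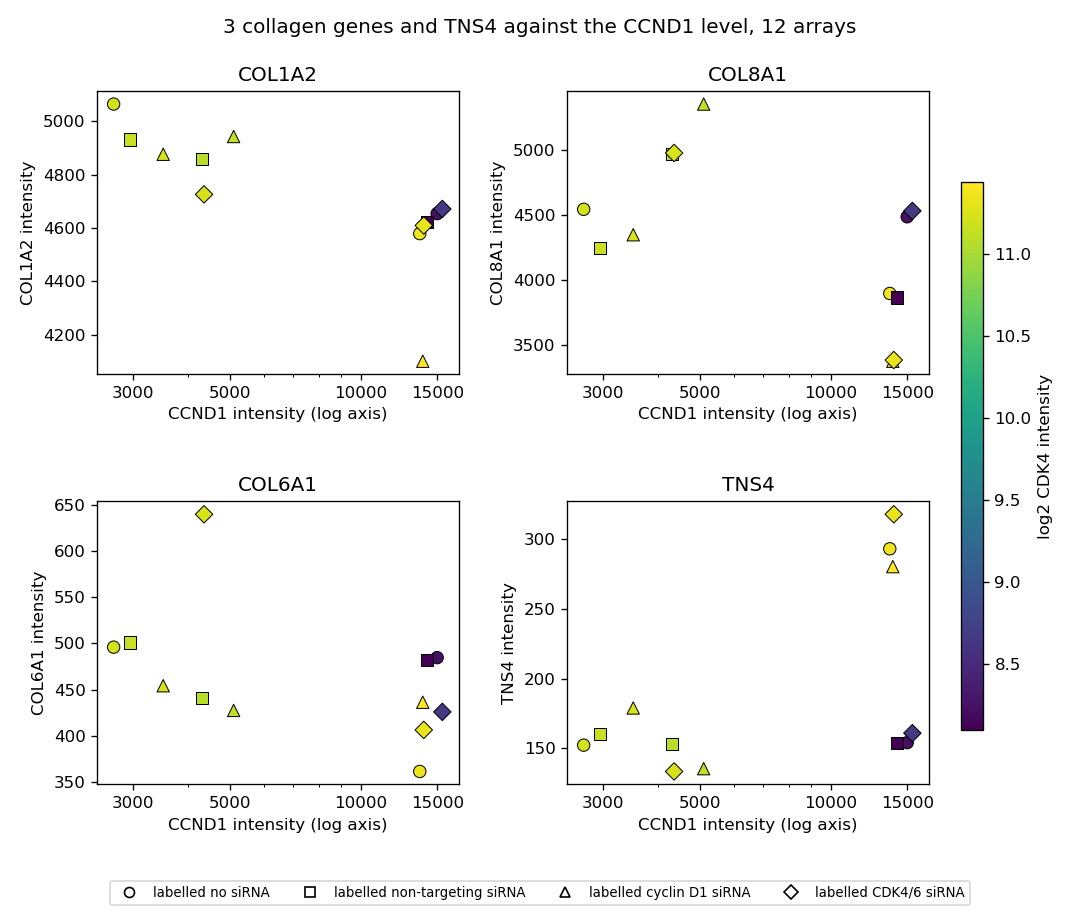
Deposited intensity of single genes (y axes, linear units) against the CCND1 probe intensity (x axes, linear units on a log axis) on the 12 arrays, with marker shape giving the label and colour the log2 CDK4 intensity. COL1A2 is the gene whose arrays low and high in CCND1 do not overlap, at 4726 to 5064 against 4100 to 4671, and TNS4 is high on 3 arrays only.

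By the labels, no gene of the family was called in any of 4 comparisons (cyclin D1, CDK4/6 and no siRNA, each against the non-targeting arrays, and cyclin D1 against CDK4/6 siRNA), and neither was any of the 13596 genes tested (limma, percent called 0). The methods' t-test also called 0 members after Benjamini-Hochberg adjustment. At an unadjusted p under 0.05, limma counted 3 members (ITGA7, ITGAV and COL7A1), 2 (COL6A3 and COL7A1), 1 (COL7A1) and 2 (ITGAV and COL4A2) in these comparisons, beside 3.04%, 1.81%, 1.82% and 1.38% of all genes. The first 3 comparisons share the non-targeting arrays, so a gene that is low or high on those arrays enters all of them. Members whose 3 arrays did not overlap with the other 3 numbered 6 above and 1 below, 4 and 0, 3 and 0, and 1 and 2, and 7.63%, 6.1%, 6.63% and 4.47% of all genes did not overlap in either direction. The median log2 change over the members was 0.0042, 0.034, 0.034 and −0.016, and over all genes 0.0032, 0.0042, 0.0037 and −0.0018.

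COL7A1, whose product anchors the basement membrane to the stroma beneath it, was lowest on the 3 arrays labelled non-targeting siRNA. It measured 537, 576 and 445 there, 608, 634 and 649 without siRNA, 786, 600.3 and 628 for cyclin D1 siRNA, and 673, 660.4 and 819 for CDK4/6 siRNA. The non-targeting arrays did not overlap with any other label, and no siRNA (608 to 649) lay below CDK4/6 siRNA (660.4 to 819), while cyclin D1 siRNA overlapped with both. The log2 change against non-targeting siRNA was 0.45 (SE 0.12, n = 3 and 3) for CDK4/6 siRNA, 0.36 (SE 0.12) for cyclin D1 siRNA and 0.28 (SE 0.12) for no siRNA, with an adjusted p of 0.9998 for the first (limma). All 3 values rest on the same low non-targeting arrays. Target levels also differed within each label. On the non-targeting arrays CCND1 measured 2951, 14187 and 4311 and CDK4 2289, 275 and 2167. CDK4 on the CDK4/6 arrays measured 2561, 409 and 2408. These are therefore differences between labels, not responses to a measured loss of a target. The share of all genes that were lowest on the arrays of a single label was not computed.

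ITGAV was higher on the 3 arrays labelled cyclin D1 siRNA (486 to 513) than on every other array (375 to 473). Its log2 difference from non-targeting siRNA was 0.23 (SE 0.071, n = 3 and 3), with an adjusted p of 0.9999 (limma). CCND1 on these 3 arrays measured 13878, 3513 and 5100, and ITGAV was highest on the first, where CCND1 was high. The ITGAV slope on CCND1 was −0.0017 (adjusted p = 0.992, limma). The share of all genes highest on the 3 arrays of a single label was not computed. COL6A3, the longest chain of type VI collagen, measured 119, 129 and 107 without siRNA, 122, 107 and 110.0 for non-targeting siRNA, 130.0, 121 and 121 for cyclin D1 siRNA, and 128, 126 and 146 for CDK4/6 siRNA. Its log2 difference between CDK4/6 and non-targeting siRNA was 0.21 (SE 0.073, adjusted p = 0.9998, limma), and those 2 sets of arrays did not overlap. The mixed target levels of these 2 labels, given above for COL7A1, apply here too.

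The array labelled CDK4/6 siRNA 3 held the highest value of many of these genes. It was highest for 12 of the 28 genes above background on all arrays, or 42.9%, while it was highest for 15.3% of the 11005 such genes of the array. The 12 were ITGA3, ITGA5, ITGB5, LAMA1, LAMB1, LAMB2, LAMB3, COL4A1, COL4A2, COL6A1, COL6A3 and COL7A1. The next array, cyclin D1 siRNA 3, was highest for 4 of the 28, or 14.3% beside 11.9%. Over the other probes of these genes, which the first count did not use, CDK4/6 siRNA 3 was highest for 5 of 13. These probes read the same RNA on the same array, so they are not independent of the first count. The share over the other probes of all genes was not computed. Without it, the log2 difference of CDK4/6 from non-targeting siRNA was 0.36 for COL7A1 and 0.15 for COL6A3. This is 1 array, and the other 2 with its label did not share the pattern, being highest for 2 of the 28 each.

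**Figure D4:**
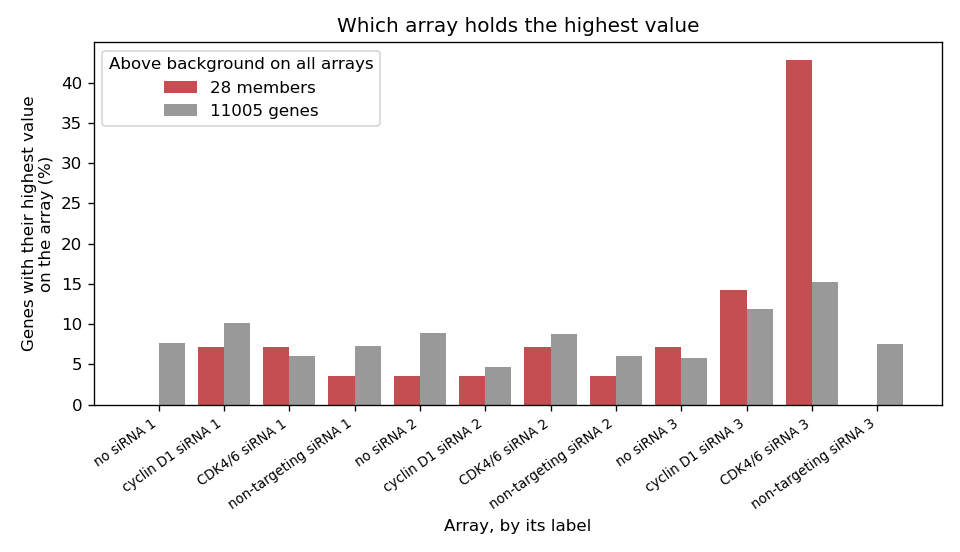
Share of genes whose highest value was on a given array (y axis, percent) for each of the 12 arrays (x axis, by label), for the 28 integrin, laminin and collagen genes and for the 11005 genes above background on all arrays. CDK4/6 siRNA 3 held the highest value of 42.9% of the 28 genes and of 15.3% of all such genes.

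COL4A1 and COL4A2 lie head to head on chromosome 13, and both were highest on that array, at 1025 and 206. The stretch between their start sites in RefSeq (GRCh38.p14, chr13:110307158-110307283, plus strand, 126 bases) is shown because it serves as the upstream sequence of both genes. The promoters of COL7A1 (chr3:48595330-48595579, minus strand), the gene with the widest range, and LOXL1 (chr15:73926212-73926461, plus strand), a collagen-modifying enzyme described below, are the 250 bases before each start. Capitals mark the E-box letters CANNTG, which read the same on both strands and are bound by basic helix-loop-helix and zinc finger factors.
COL4A1/COL4A2: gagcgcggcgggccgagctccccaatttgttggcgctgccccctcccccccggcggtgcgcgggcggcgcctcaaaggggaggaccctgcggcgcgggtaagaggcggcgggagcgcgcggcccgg
COL7A1: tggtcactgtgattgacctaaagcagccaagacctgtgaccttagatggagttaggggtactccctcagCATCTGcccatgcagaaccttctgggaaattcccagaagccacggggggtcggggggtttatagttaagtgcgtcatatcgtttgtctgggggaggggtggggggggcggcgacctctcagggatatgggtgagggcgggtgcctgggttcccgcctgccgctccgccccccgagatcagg
LOXL1: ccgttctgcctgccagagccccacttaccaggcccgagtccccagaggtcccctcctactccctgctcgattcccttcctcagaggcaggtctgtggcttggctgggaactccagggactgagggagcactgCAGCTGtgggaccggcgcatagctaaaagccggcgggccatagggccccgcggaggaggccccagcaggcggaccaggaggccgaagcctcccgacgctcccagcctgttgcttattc
COL7A1 and LOXL1 each held 1 CANNTG, 181 and 118 bases upstream of the start, and 61.8% of 35116 promoters of this length held at least 1. The type IV stretch held none, where 38.8% of promoters did over 126 bases. It held 1 CCAAT, searched on both strands, as did 21.1% of promoters over that length. Of the 45 genes, 32 had a promoter entry, and 13 of these (40.6%) held CANNTG over 250 bases, beside the 61.8% of all promoters. These matches describe letters only.

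Genes that act with integrins, laminins and collagens were taken from fixed lists. Of 25 adhesion complex genes, 20 were tested, and 1, TNS4, was called. Over all genes tested, 4.71% were called for CCND1 and 3.18% for CDK4, so 1 of 20 is near the share of all genes. TNS4 encodes a tensin-family protein that binds the cytoplasmic tail of β integrins. It measured 293, 281 and 318 on the replicate 1 arrays of no siRNA, cyclin D1 and CDK4/6 and 133 to 179 on the other 9 arrays. The 3 high arrays were those on which CCND1, CDK4 and CDK6 were all high, and they did not overlap with the rest. The share of all genes with their 3 highest values on these arrays was not computed. Its slope was 0.39 on CCND1 (SE 0.057, adjusted p = 0.00172) and 0.28 on CDK4 (SE 0.046, adjusted p = 0.00459, limma). The 3 high arrays all carry the replicate number 1, and with that number as a block the slope was 0.31 on CCND1 (adjusted p = 0.0232) and 0.22 on CDK4 (adjusted p = 0.114, limma), so the CDK4 call was lost. In a model with only the CCND1 level the slope was 0.20 with an adjusted p of 0.572, and in a model with only CDK4 it was 0.11 with an adjusted p of 0.9998 (limma).

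Of 24 collagen-modifying enzymes, 18 were tested and 1 was called, for CCND1. That is again near the 4.71% of all genes called for CCND1. LOXL1, a lysyl oxidase family member that crosslinks elastin and collagen, had a slope of 0.15 on CCND1 (SE 0.031, adjusted p = 0.0170, limma) and of 0.082 on CDK4 (adjusted p = 0.137). It was highest, at 1427 to 1598, on the same 3 arrays as TNS4 and measured 1139 to 1399 elsewhere, a pattern whose share over all genes was not computed. A second LOXL1 probe had a slope of −0.014 (adjusted p = 0.924 over all probes, limma), so the call holds for the brightest probe only. The call was lost on leaving out any of 4 arrays in turn: adjusted p was 0.0506 without no siRNA 1, 0.110 without cyclin D1 siRNA 1, 0.0516 without non-targeting siRNA 1 and 0.0603 without no siRNA 2 (limma).

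No gene was called among 17 tested of 25 other matrix proteins, or among 17 tested of 32 integrin, laminin and collagen genes outside the 45, for either level (limma). Of the latter 32, 30 had a probe, and 10 were above background on all arrays. COL9A1, a fibril-associated collagen of cartilage, measured 1517 to 1791, and COL15A1, a basement membrane zone collagen, measured 748 to 1261, with a CCND1 slope of 0.14 (SE 0.060, adjusted p = 0.322, limma). COL28A1 and COL14A1 had smaller adjusted p for CCND1, with slopes of 0.062 (adjusted p = 0.269) and 0.093 (adjusted p = 0.285, limma). In the label comparisons 0 genes of any of the lists were called.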

How the data were processed

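The authors deposited a linear intensity per probe for each of 12 Illumina arrays (48803 probes, 28 to 20972 units, median 44.1). The values had nearly one distribution on all arrays, as after quantile normalisation, with background not subtracted. How the authors normalised them: not given in the sources used here. Array number limits the precision. Another table holds 24 per-sample columns (12 of intensities before normalisation and 12 of detection p-values) whose names match no sample label, and they were not used here. Background was corrected with normexp (offset 50) and arrays were quantile normalised again and taken to log2 in limma 3.58.1 (R 4.3.3). The background level was set from the lower tail of all intensities, and a probe was tested if above it on at least 3 arrays, which left 27229 probes and 13596 genes by brightest probe. Label groups and the CCND1 and CDK4 levels were fitted with lmFit and eBayes. Benjamini-Hochberg adjustment was over all tested probes, with a threshold of 0.05. The probes of the covariates were left out of the level fit. Of the probes, 27578 carried 1 symbol, 13 several and 21212 none. Genes described in full were the 6 with the smallest p over both fits, and TNS4 and LOXL1 were described because they were called. The members and lists were chosen with earlier results of these data known. The code was tested on simulated data. The alternatives were normalisation, filters, probe choice, replicate block and leaving out each array.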

Additional observations from a re-analysis of the deposited data

How the results depend on the processing

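The count of called integrin, laminin and collagen genes was 0 under each alternative run, for both probe levels and all 4 label comparisons, and leaving out each array in turn gave 0 to 0. With the replicate number as a block it was again 0 members. Deviations of same-numbered arrays correlated at −0.24 to 0.42 over 18 pairs (median 0.14, 10 over 0.1), and those of other pairs at −0.50 to 0.49 over 36 (median −0.048, 13 over 0.1). Since not every same-numbered pair was over 0.1, the numbers were not taken as a pairing and the block is a check only. The deviations were taken from the label means, and the target levels did not follow the labels. The correlations therefore cannot separate a pairing by number from a shared target level. The COL1A2 slope on CCND1 ran from −0.079 to −0.056 (−0.068 under the block) and, leaving out each array, from −0.086 to −0.048. That of COL8A1 ran from −0.19 to −0.089 (−0.089 under the block) and from −0.20 to −0.14, and that of COL6A1 from −0.16 to −0.087 and from −0.16 to −0.10. None changed sign. With no siRNA in place of non-targeting siRNA as the control, the COL7A1 difference was 0.18. The slopes of TNS4 and LOXL1 were put through the same alternatives, which was chosen after seeing the data. Under the block TNS4 kept its CCND1 call (0.31, adjusted p = 0.0232, limma) and lost its CDK4 call (0.22, adjusted p = 0.114), and LOXL1 lost its call (0.17, adjusted p = 0.0551). LOXL1 also lost it with the mean over its probes (0.067, adjusted p = 0.212) and with CCND1 as the only level (0.092, adjusted p = 0.457). The causes were not tested. Signals near the background level limit what can be said of ITGA7, ITGA9, ITGB8, COL5A2 and COL18A1.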
